A study of Homo sapiens with 9 samples.

Results

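Keratins are the intermediate filament proteins of epithelial cells, and the 10 examined here were read by gene symbol from per-tumour count files that list 21619 genes. They were 4 luminal keratins (KRT7, KRT8, KRT18 and KRT19), 3 basal keratins (KRT5, KRT14 and KRT17), the epithelial keratin KRT80 and the hair keratins KRT81 and KRT86. The samples were 9 tumours grown in the mammary fat pad of mice from MDA-MB-231 cells, a human breast cancer line of mesenchymal, triple-negative type, that expressed the ribosomal protein L10a fused to EGFP. In 5 tumours, numbered 1, 6, 7, 10 and 15, the cancer cells had been injected with an equal number of mesenchymal stem cells (MSC) from human bone marrow, and in 4, numbered 9, 11, 12 and 13, they had been injected alone. All tumours were taken after 3 weeks, each from a different mouse, and the RNA on tagged ribosomes was pulled down from the lysate of the whole tumour, so that the counts stand for RNA held by ribosomes. For the mouse strain, the age of the mice and the MSC donors, the sources used here give nothing.

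A keratin filament is built from pairs of 1 acidic type I and 1 basic type II protein, and a keratin without a partner is degraded. KRT8 (type II) and KRT18 (type I) are the first pair of simple epithelia, joined in luminal breast cells by KRT7 (type II) and KRT19 (type I). KRT5 (type II) and KRT14 (type I) are the pair of basal and myoepithelial cells, and KRT17 (type I) is a basal and stress keratin. Filaments end at desmosomes, the junctions between cells, and at hemidesmosomes, which hold the cell to the basement membrane.

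Several keratins are close copies of each other, and the sequences below, from GENCODE 29 transcripts on GRCh38, show how close the copies are that a count per symbol must keep apart. Over bases 61 to 120 of both coding sequences, counted from the A of the start codon, the hair keratins KRT81 and KRT86 are the same in every base, so that no capital letter is needed. For KRT14 and KRT17 the stretch is bases 336 to 395 of KRT14 and 243 to 302 of KRT17, where capitals mark the 5 bases that differ. It is not their most alike stretch, but the first of 60 bases with the pair's median number of differences.
KRT81: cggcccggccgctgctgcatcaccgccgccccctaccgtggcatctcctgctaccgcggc
KRT86: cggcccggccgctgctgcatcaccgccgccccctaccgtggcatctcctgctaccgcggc
KRT14: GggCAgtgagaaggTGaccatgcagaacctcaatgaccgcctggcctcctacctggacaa
KRT17: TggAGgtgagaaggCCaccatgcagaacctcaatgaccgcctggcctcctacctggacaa
Across their whole coding sequences KRT81 and KRT86 were identical at 93.6% of aligned bases, with 1 run of 605 identical bases, and KRT14 and KRT17 at 84.8%, with no identical run above 59 bases. The filament partners KRT8 and KRT18 were identical at 56.2%, with no run above 15 bases. In the annotation KRT8 and KRT18 overlap on opposite strands of chromosome 12, as do KRT81 and KRT86, and KRT7 overlaps KRT7-AS and, on the same strand, KRT86. Whether the counting used strand is not stated, so reads from those overlaps cannot be told apart. The share of 50-base stretches also found in transcripts of another gene was 47.6% for KRT18, 44.6% for KRT81, 40.5% for KRT86, 36.9% for KRT8, 23.8% for KRT14 and 15.98% for KRT17. It was 10.8% for KRT7, 3.99% for KRT5, 1.79% for KRT19 and 0.42% for KRT80. Values of KRT81 and KRT86 are therefore uncertain. Those of KRT8, KRT18, KRT14 and KRT17 may hold reads of their copies, or lack reads set aside as ambiguous or not uniquely aligned.

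Gene totals were 24616792 to 65275226 counts per library. Of 9 genes read for the line, vimentin (VIM) stood at 6742 to 12516 CPM (counts scaled to a common library size). The estrogen receptor ESR1 was at no more than 0.208 CPM and PGR 0.0608, and the epithelial cadherin CDH1 had at most 1 count in any library. CD44 was 285.1 to 613.7 CPM, AXL 291.7 to 544.6, EGFR 7.20 to 21.3, ERBB2 17.8 to 36.2 and EPCAM 8.63 to 14.7. These values are a description and do not by themselves identify the line. Tumour 15 stood apart for stromal RNA, with 18.9 CPM of the fibroblast gene DCN against at most 0.207 CPM in the other 8. Tumour 12 was the library whose omission lowered the number of called genes most. Fewer cells of a type and less RNA per cell cannot be told apart in such samples.

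The luminal keratins dominated. Divided by transcript length, KRT7 averaged 240.7 CPM per kilobase over the 9 tumours, KRT19 223.8, KRT18 180.8 and KRT8 130.9. KRT81 followed at 15.4 CPM per kilobase and KRT80 at 10.6, then KRT17 at 3.36, KRT14 at 1.46, KRT86 at 1.42 and KRT5 at 0.0131. Each keratin was above the next in that order in all 9 tumours, with 2 exceptions. KRT7 was above KRT19 in 6 of 9 tumours, with a log2 ratio of 0.09 ± 0.29 (SD, n = 9), and KRT14 was above KRT86 in 5 of 9, with a log2 ratio of -0.15 ± 0.96 (SD, n = 9). These neighbours did not differ beyond their spread. Of the summed level per kilobase of the 10 keratins, the 4 luminal ones made up 95.02 to 97.0% in tumours with MSC and 95.6 to 96.6% in tumours without. The 10 together gave 905.7 ± 129.9 CPM per kilobase with MSC (SD, n = 5) and 686.8 ± 90.9 without (SD, n = 4), with overlapping ranges of 768.2 to 1095 and 576.0 to 796.2.

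**Figure D1:**
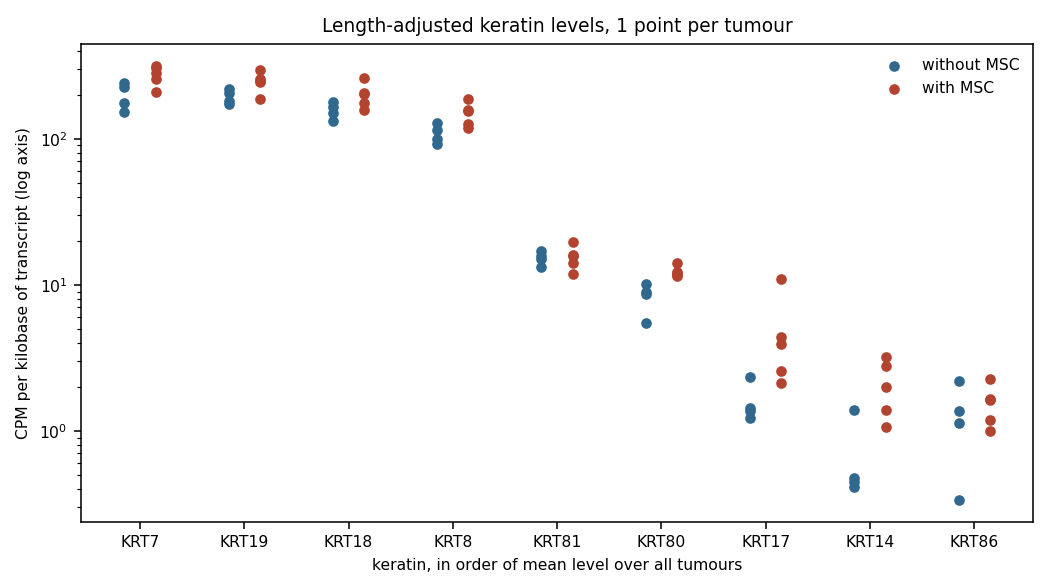
CPM per kilobase of transcript (log axis) of 9 keratins in order of their mean over all tumours, with 1 point per tumour, blue without MSC and red with MSC. KRT5, which had counts in 2 tumours only, is not drawn. The 4 luminal keratins lie well above KRT81 and KRT80, and KRT17, KRT14 and KRT86 are lowest.

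In the test of tumours with against without MSC (edgeR's quasi-likelihood test on the counts, Benjamini-Hochberg adjustment over 13458 genes, threshold 0.05), 4 of the 9 keratins tested were higher with MSC: KRT14, KRT80, KRT7 and KRT8. Of all genes tested, 4.18% were called higher and 3.6% lower. No keratin was lower with edgeR, DESeq2 or limma-voom, nor at an unadjusted p under 0.05, where 7 of the 9 were higher against 12.8% of all genes. The fitted log2 change was above 0 for all 9 keratins, against 51.1% of all genes. Its median was 0.46, against 0.01 over all genes. The members were chosen with earlier results of these data known, so these shares describe them and test nothing. KRT5 was too low to be tested. The count of 4 rested on single libraries: it was 0 without tumour 1 or tumour 12, 1 without tumour 9 and 2 without tumour 6. It was 1 with limma-voom (KRT80) and 0 without tumours 15 and 12 together. After a correction for transcript length and GC content, 56.8 to 62.9% in the 10 keratins, it was 2 (KRT14 and KRT17). Under that correction the median log2 change was 0.27 over the tested keratins and -0.05 over all genes.

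**Figure D2:**
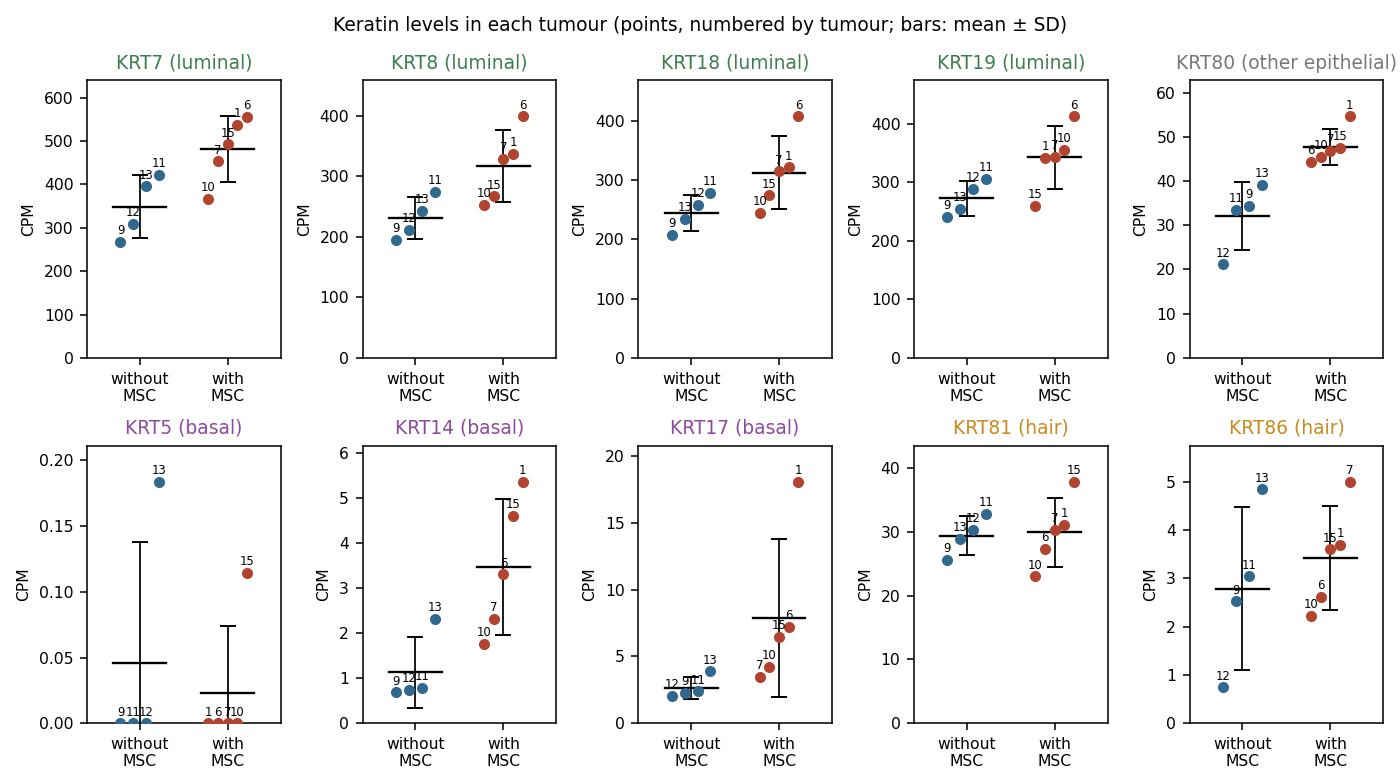
CPM of each keratin in each tumour, 1 panel per keratin, with points numbered by tumour and set from low to high within a group (blue without MSC, red with MSC). Bars are mean ± SD over 4 tumours without and 5 with MSC. KRT80 alone has no overlap between groups, and tumours 1 for KRT17 and 13 for KRT14 stand high in their groups.

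Among the luminal keratins, KRT7 and KRT8 passed the test and KRT18 and KRT19 did not. The median log2 change of the 4 was 0.41. KRT7, the type II keratin of glandular ducts, was measured with MSC at 537.4 CPM in tumour 1, 556.1 in tumour 6, 453.0 in tumour 7, 367.0 in tumour 10 and 492.3 in tumour 15. Without MSC it was 267.4 CPM in tumour 9, 421.5 in tumour 11, 309.8 in tumour 12 and 395.3 in tumour 13. Tumour 10 lay within the range of the tumours without MSC, and the other 4 tumours with MSC lay above all of them. The means were 481.1 ± 75.4 (SD, n = 5) and 348.5 ± 72.1 CPM (SD, n = 4), a log2 change of 0.47 ± 0.14 (SE, edgeR adjusted p = 0.0484). KRT7 passed in 7 of 20 alternative settings. It was lost without any 1 of tumours 1, 6, 7, 15, 9 or 12, and without tumours 15 and 12 together. Nor did it pass with DESeq2 size factors, library size only, limma-voom, robust=FALSE or thinned counts. After the GC correction it was lost as well, with a log2 change of 0.27 (edgeR adjusted p = 0.137).

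KRT8, the type II member of the first filament pair of simple epithelia, was 336.9 CPM in tumour 1, 398.4 in tumour 6, 328.1 in tumour 7, 253.2 in tumour 10 and 266.4 in tumour 15. Without MSC it was 195.2 CPM in tumour 9, 273.6 in tumour 11, 210.6 in tumour 12 and 242.4 in tumour 13. Tumours 1, 6 and 7 lay above every tumour without MSC, while tumours 10 and 15 lay below tumour 11. The means were 316.6 ± 58.7 (SD, n = 5) and 230.5 ± 34.8 CPM (SD, n = 4), and the log2 change was 0.46 ± 0.13 (SE, edgeR adjusted p = 0.0413). KRT8 passed in 12 of 20 settings; it was lost without tumours 1, 6, 7, 9 or 12, with limma-voom, without tumours 15 and 12 together, and after the GC correction (log2 0.31, edgeR adjusted p = 0.118).

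KRT18, the type I partner of KRT8, was 321.5 CPM in tumour 1, 407.5 in tumour 6, 314.9 in tumour 7, 244.5 in tumour 10 and 274.3 in tumour 15. The tumours without MSC gave 208.1 CPM in tumour 9, 278.3 in tumour 11, 258.4 in tumour 12 and 234.1 in tumour 13. The same 3 tumours, 1, 6 and 7, lay above every tumour without MSC. The log2 change was 0.35 ± 0.13 (SE, edgeR adjusted p = 0.103), and KRT18 did not pass in any of the 20 settings.

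KRT19, the smallest type I keratin and a marker of simple epithelium, was 341.2 CPM in tumour 1, 412.2 in tumour 6, 343.1 in tumour 7, 354.5 in tumour 10 and 259.8 in tumour 15. In the group without MSC it was 241.0 CPM in tumour 9, 306.0 in tumour 11, 288.3 in tumour 12 and 254.2 in tumour 13. Tumour 15 was the 1 tumour with MSC that lay among those without. The log2 change was 0.33 ± 0.12 (SE, edgeR adjusted p = 0.103) over all 9 tumours and 0.41 (edgeR adjusted p = 0.0329) without tumour 15, the 1 setting of 20 in which KRT19 passed.

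KRT80, a type II keratin of many epithelia, was the 1 keratin whose groups did not overlap. Among all genes tested, 5.13% had every tumour with MSC above every tumour without and 4.87% every tumour below, and no keratin was among the second. KRT80 was 54.6 CPM in tumour 1, 44.3 in tumour 6, 46.8 in tumour 7, 45.4 in tumour 10 and 47.5 in tumour 15. The levels without MSC were 34.4 CPM in tumour 9, 33.4 in tumour 11, 21.1 in tumour 12 and 39.1 in tumour 13. The tumours with MSC were tightly spaced, at 47.7 ± 4.02 CPM (SD, n = 5), and those without less so, at 32.0 ± 7.66 (SD, n = 4). The log2 change was 0.57 ± 0.14 (SE, edgeR adjusted p = 0.0200). It passed in 16 of 20 settings, the most of any keratin, and was lost without tumour 1 (log2 0.52), without tumour 12 (0.42), without tumours 15 and 12 together (0.42) and after the GC correction (0.41).

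The basal keratins were low but had the largest fitted changes of the 9 tested. KRT14, the type I keratin of basal and myoepithelial cells, was 5.35 CPM in tumour 1, 3.30 in tumour 6, 2.31 in tumour 7, 1.75 in tumour 10 and 4.60 in tumour 15, from 87 to 203 counts. Without MSC it was 0.684 CPM in tumour 9, 0.785 in tumour 11, 0.744 in tumour 12 and 2.32 in tumour 13, from 18 to 101 counts. Every tumour with MSC lay above tumours 9, 11 and 12, and tumour 13 lay above tumours 7 and 10. The means were 3.46 ± 1.51 (SD, n = 5) and 1.13 ± 0.791 CPM (SD, n = 4), with a fitted log2 change of 1.59 ± 0.40 (SE, edgeR adjusted p = 0.0234), a fitted fold of 3.01. Without tumour 13 the log2 change was 2.23 (edgeR adjusted p = 0.00155). The call was lost without any 1 of tumours 1, 15, 9, 11 or 12, where the log2 change was 1.38 to 1.47, with limma-voom, and without tumours 15 and 12 together (log2 1.32); it held in 12 of the 19 settings that tested the gene.

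KRT17, a type I keratin of basal cells and wounded epithelium, was 18.1 CPM in tumour 1, 7.21 in tumour 6, 3.49 in tumour 7, 4.23 in tumour 10 and 6.45 in tumour 15. The tumours without MSC had 2.25 CPM in tumour 9, 2.39 in tumour 11, 2.03 in tumour 12 and 3.88 in tumour 13. Tumour 1 was far above all others, and tumour 7 lay below tumour 13. The means were 7.89 ± 5.88 (SD, n = 5) and 2.64 ± 0.842 CPM (SD, n = 4). The fitted log2 change of 1.57 ± 0.44 (SE, edgeR adjusted p = 0.0501) just missed the threshold, and without tumour 1 it was 1.01 (edgeR adjusted p = 0.0546). In 10 of the 19 settings that tested it KRT17 passed, among them DESeq2 (adjusted p = 0.0254) and the GC correction (log2 1.38, edgeR adjusted p = 0.0425), and over all 19 the adjusted p ran from 0.0203 to 0.278.

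KRT5, the type II partner of KRT14, was all but absent. It had 4 counts in tumour 15 with MSC (0.114 CPM) and 8 in tumour 13 without (0.184 CPM), and 0 in the other 7 libraries, where a count of 0 allows up to 0.0456 to 0.124 CPM (3 counts per library, counting error only). The pair KRT5 and KRT14 could therefore not be compared across tumours.

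The hair keratins KRT81 and KRT86, type II proteins of the hair cortex, did not pass in any setting. KRT81 was 23.0 to 37.8 CPM with MSC (median 30.3) and 25.6 to 32.8 without, a log2 change of 0.03 ± 0.13 (SE, edgeR adjusted p = 0.932), and its direction turned in 6 of 20 settings, among them limma-voom, thinned counts and the GC correction (log2 -0.18). KRT86 was 2.22 to 4.996 CPM with MSC (median 3.60) and 0.744 to 4.84 without, a log2 change of 0.28 ± 0.36 (SE, edgeR adjusted p = 0.677), which turned to -0.02 without tumour 12. The groups of both genes overlapped throughout.

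**Figure D3:**
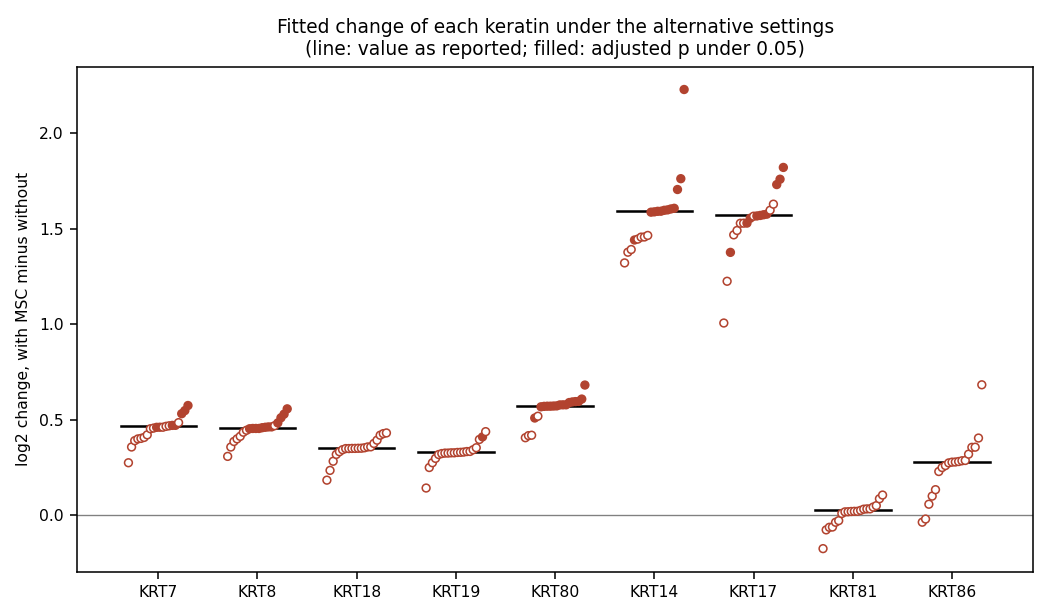
Fitted log2 change of each tested keratin, with MSC minus without, in each alternative setting (points, low to high), with the reported value as a line. Filled points passed at an adjusted p under 0.05. KRT80 has the most filled points, KRT18, KRT81 and KRT86 have none, and KRT81 and KRT86 have points on both sides of 0.

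Set side by side, the basal keratins took 0.392 to 1.47% of the summed keratin level per kilobase with MSC and 0.241 to 0.543% without. As a share of KRT8 per kilobase, KRT14 was 0.886 to 2.21% with MSC and 0.367 to 1.22% without, tumour 13 again being the highest without MSC. The log2 ratio of KRT14 to KRT8 was 1.25 higher with MSC, and 1.06 to 1.63 higher when single tumours were left out. This ratio is given as a description, with no test. The ratio of KRT8 to KRT18 per kilobase was 0.714 to 0.770 with MSC and 0.599 to 0.761 without, a log2 difference of 0.11, which was 0.04 without tumour 12 and 0.16 without tumour 13.

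Across tumours, KRT8 and KRT18 varied together. After the group means were removed from log2 CPM, Pearson's r was 0.907 (exact two-sided permutation within groups, n = 9, p = 0.00417, adjusted p = 0.0109) and Spearman's rho 0.867 (exact permutation p = 0.0104, adjusted p = 0.0156). Without tumours 6 and 9, the farthest from the median of KRT8, r was 0.797. KRT14 and KRT17 did likewise, with r = 0.790 (exact permutation p = 0.00729, adjusted p = 0.0109), rho = 0.883 (exact permutation p = 0.00903, adjusted p = 0.0156) and r = 0.788 without tumours 9 and 12. For KRT81 and KRT86 r was 0.213 (exact permutation p = 0.503) and rho 0.317 (exact permutation p = 0.433), and r was 0.0324 without tumours 10 and 15, and 0.554 without tumour 12. These were the 3 pairs computed, and p-values were adjusted over them. Both genes of a pair come from 1 library. The overlap of KRT8 with KRT18 given above could place reads of 1 gene in the other, or have them set aside as ambiguous. KRT14 and KRT17 had no identical coding run above 59 bases. The gene that shared most stretches with KRT14 was KRT16 (11.2% of those of KRT14). For KRT17 it was KRT17P1 (9.36% of those of KRT17). The part of overlap and likeness in r was not tested. With 1 tumour left out, the adjusted p of KRT14 and KRT17 missed the threshold without tumour 1 (r = 0.853, exact permutation adjusted p = 0.0547) and without tumour 13 (r = 0.827, exact permutation adjusted p = 0.0958).

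**Figure D4:**
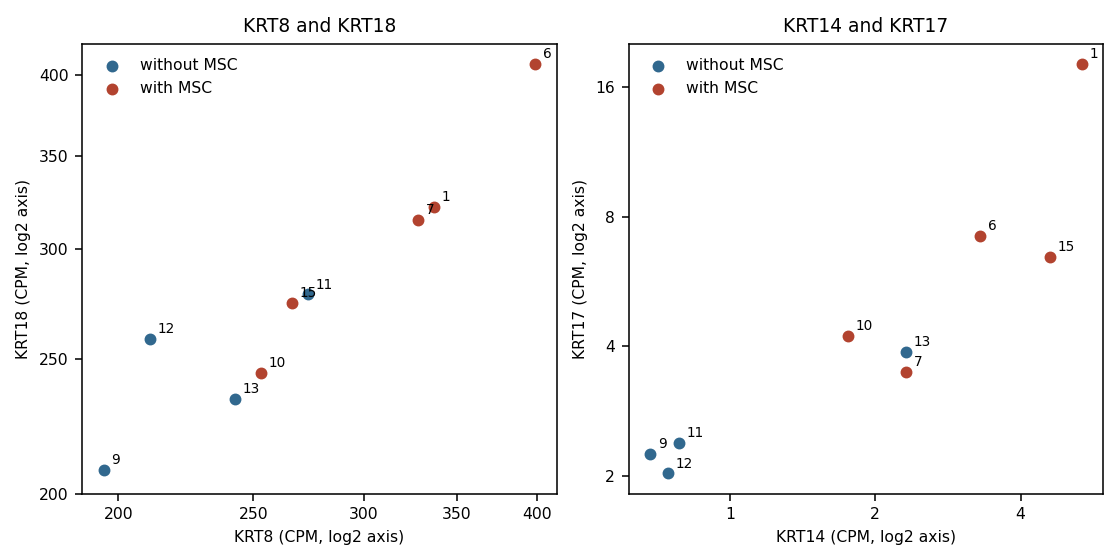
CPM of KRT18 against KRT8 (left) and of KRT17 against KRT14 (right), both axes log2, 1 numbered point per tumour, blue without MSC and red with MSC. In the left panel tumours 6, 1 and 7 are highest and tumour 9 lowest for both genes, and in the right panel tumours 9, 11 and 12 lie together at the low end.

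The genes most like these keratins over the 9 tumours were named by Pearson's r of log2 CPM among the 12614 tested genes whose mean count reached 20, as a description in which all values of a tumour share 1 library and the group difference is left in. KRT18 was led by KRT8 (r = 0.941), NR2C2AP (0.935), TEAD4 (0.932), QTRT1 (0.929) and TXNRD2 (0.925). KRT8 was led by RPUSD3 (r = 0.958), TK1 (0.958), ABHD14A (0.951), CUTA (0.951) and GADD45GIP1 (0.947), with KRT18 at rank 6 and KRT7 at rank 38. KRT14 was led by TBC1D2 (r = 0.976), the Wnt inhibitor DKK1 (0.967), OGDH (0.960), ASCC2 (0.954) and CERS6 (0.953), with KRT17 at rank 83 (0.904). KRT81 was led by NSUN5P1 (r = 0.885), ING5 (0.867), CAD (0.835), CLSTN3 (0.8288) and CENPT (0.826), and the nearest of the other keratins was KRT7 at rank 905 (0.435).

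Of the other 45 keratins in the table, 23 had no count in any tumour, 5 could be tested and 0 passed with edgeR, DESeq2 or limma-voom, with 1 at an unadjusted p under 0.05. KRT10, a keratin of upper epidermal layers, was 101.7 ± 17.6 CPM with MSC (SD, n = 5) and 105.7 ± 21.0 without (SD, n = 4). KRT15, a basal keratin, was 12.8 ± 2.48 and 11.9 ± 0.819 CPM. KRT34, a hair keratin, was 2.59 ± 0.933 and 0.927 ± 0.639 CPM, a log2 change of 1.42 ± 0.55 (SE, edgeR adjusted p = 0.122). KRT16, a stress keratin that is a near copy of KRT14 (88.5% of aligned coding bases), was 0.597 ± 0.368 and 0.238 ± 0.181 CPM, a log2 change of 1.23 ± 0.81 (SE, edgeR adjusted p = 0.363).

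Among the anchors of keratin filaments, 3 of 8 tested desmosome genes were higher with MSC and 0 lower, with a median log2 change of 0.20. Over all genes the shares were 4.18% higher and 3.6% lower. DSP, desmoplakin, which ties keratins to the junction, was 43.8 ± 7.43 CPM with MSC (SD, n = 5) and 27.9 ± 2.55 without (SD, n = 4), a log2 change of 0.65 ± 0.13 (SE, edgeR adjusted p = 0.00745). DSG2, a desmosomal cadherin, was 47.3 ± 2.96 and 30.0 ± 6.84 CPM, with the same log2 change and SE. Both passed in 20 of 20 settings. PKP3, a plakophilin, rose by 0.51 ± 0.14 (SE, edgeR adjusted p = 0.0343) and passed in 11 of 20 settings, while JUP, PKP2, PKP4, DSC2 and PERP did not pass. Desmosome genes summed to 326.0 to 384.4 CPM with MSC and 291.1 to 322.1 without.

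Of 11 tested plakin and hemidesmosome genes, 2 were higher with MSC and 0 lower (4.18% and 3.6% of all genes), with a median log2 change of 0.27. They were CD151, a tetraspanin bound to laminin-binding integrins, at 237.4 ± 20.6 CPM with MSC (SD, n = 5) and 126.1 ± 44.9 without (SD, n = 4), a log2 change of 0.91 ± 0.17 (SE, edgeR adjusted p = 0.00621), and the integrin ITGB4 (0.72 ± 0.17, edgeR adjusted p = 0.0167). CD151 passed in 20 of 20 settings and ITGB4 in 16. The linker PLEC, which connects filaments to hemidesmosomes, did not pass (0.37 ± 0.30, edgeR adjusted p = 0.489), nor did ITGA6, the partner of ITGB4 (0.05 ± 0.12, edgeR adjusted p = 0.831). After the GC correction 2 desmosome genes and 1 plakin or hemidesmosome gene were called. The median of the second list went to -0.05, which was also the median over all genes under that correction.

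**Figure D5:**
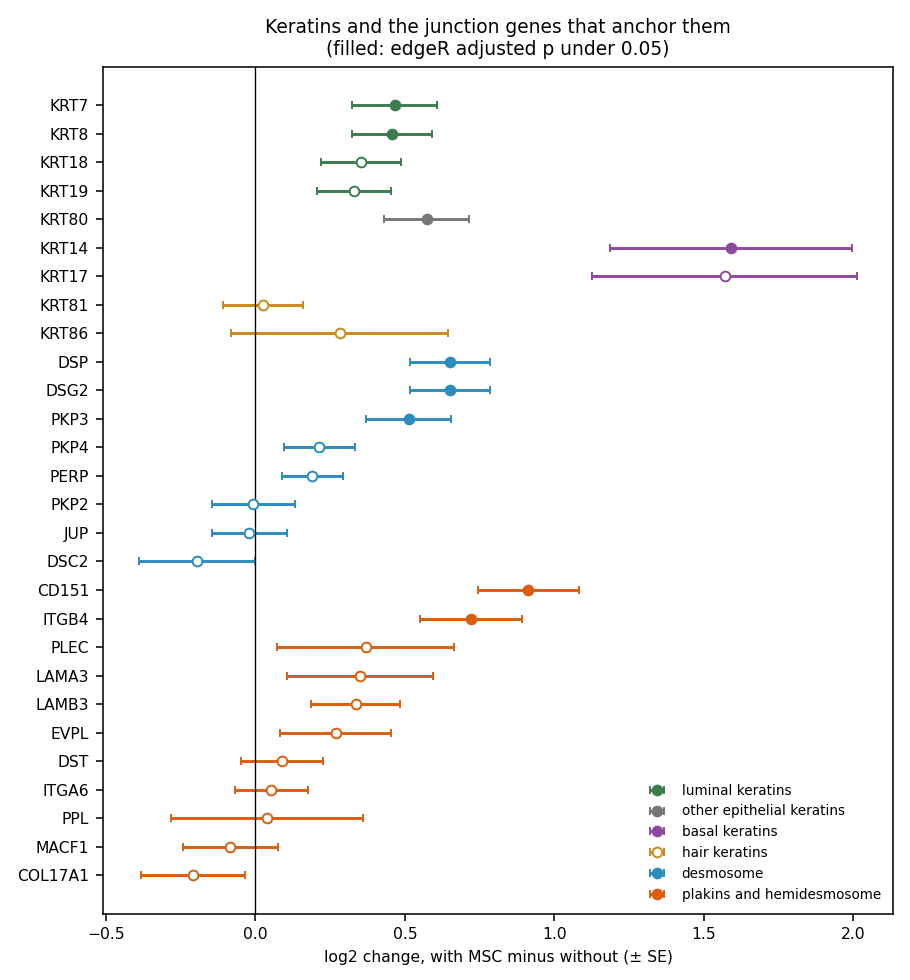
Log2 change, with MSC minus without (± SE), of the 9 tested keratins and of the tested desmosome, plakin and hemidesmosome genes. Filled points have an edgeR adjusted p under 0.05. KRT14 and KRT17 have the largest changes and the widest errors, and CD151, ITGB4, DSP and DSG2 lie above the luminal keratins.

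The other intermediate filaments had 0 higher and 2 lower of 11 tested (4.18% and 3.6% of all genes), with a median log2 change of 0.06. The nuclear lamin LMNB1 fell by 0.56 ± 0.12 (SE, edgeR adjusted p = 0.0123) and GFAP by 0.50 ± 0.14 (SE, edgeR adjusted p = 0.0388). LMNB1 passed in 18 of 20 settings and GFAP in 10, with 2 of the 9 fits that left out 1 tumour. VIM, the mesenchymal filament protein, was 8976 ± 2114 CPM with MSC (SD, n = 5) and 7380 ± 589.3 without (SD, n = 4), and did not pass (edgeR adjusted p = 0.287). Of 8 keratin-binding proteins, such as SFN and TCHP, 0 passed with edgeR, DESeq2 or limma-voom, 3 had an unadjusted p under 0.05 (STUB1 and TRADD above 0, DNAJB6 below, against 24.6% of all genes in either direction), and the median was 0.03.

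Of 19 tested transcription factors known to act on keratin genes, 2 were higher and 2 lower, against 4.18% and 3.6% of all genes, with a median of 0.03. KLF4 rose by 0.40 ± 0.12 (SE, edgeR adjusted p = 0.0431) and the AP-1 subunit JUNB by 0.42 ± 0.11 (SE, edgeR adjusted p = 0.0302). TFAP2C fell by 0.67 ± 0.19 (SE, edgeR adjusted p = 0.0356) and the Wnt pathway factor LEF1 by 0.57 ± 0.15 (SE, edgeR adjusted p = 0.0284). With single tumours left out, KLF4 passed in 2 of 9 fits, JUNB and TFAP2C in 3 and LEF1 in 4, and after the GC correction none of the list was higher.

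Other genes of the luminal and basal states were called in both lists. The shares over all genes were 4.18% higher and 3.6% lower. Of 15 luminal genes tested, 3 were higher and 1 lower (median log2 change 0.26). The tight junction protein CLDN7 rose by 0.68 ± 0.12 (SE, edgeR adjusted p = 0.00378), AGR2 by 0.62 ± 0.13 (SE, edgeR adjusted p = 0.00994) and XBP1 by 0.37 ± 0.10 (SE, edgeR adjusted p = 0.0327), while CD24 fell by 0.65 ± 0.14 (SE, edgeR adjusted p = 0.0116). Of 15 basal genes, 2 were higher and 0 lower (median 0.06): the growth factor receptor EGFR, with 0.90 ± 0.17 (SE, edgeR adjusted p = 0.00498), and ITGB4, which the hemidesmosome list also holds. CLDN7, AGR2 and EGFR passed in 20 of 20 settings, CD24 in 19, ITGB4 in 16 and XBP1 in 12, with XBP1 in 3 of the 9 fits that left out 1 tumour.

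Cells other than the cancer cells could carry keratin RNA, and their markers were read beside these results. Of keratinocyte markers, KRT1, IVL and KRTDAP had no count in any tumour, DSG3 was at most 0.184 CPM and TP63 at most 0.717 CPM. The summed level of the 15 keratinocyte markers in the table was 77.2 to 123.4 CPM with MSC and 91.7 to 137.2 without, and most of it was KRT10. Of smooth muscle and myoepithelial markers, MYH11 was at most 0.999 CPM, CNN1 at most 0.181 and ACTA2 1.63 to 2.61. Their sum was 35.9 to 73.7 CPM with MSC, highest in tumour 1, which was also highest for KRT14, KRT17 and KRT80, and 28.6 to 32.5 without. Much of that difference was TAGLN, at 31.3 ± 16.5 CPM with MSC (SD, n = 5) and 9.28 ± 1.65 without (SD, n = 4), a called rise, while ACTG2 of the same list was called lower, at 1.75 ± 0.326 and 3.51 ± 0.861 CPM (log2 change -1.003 ± 0.27, edgeR adjusted p = 0.0282). Fibroblast and MSC markers summed to 623.1 to 863.3 CPM with MSC, highest in tumour 15, and 544.8 to 686.2 without. Most of that sum was NT5E, at 611.1 ± 53.3 and 513.9 ± 62.4 CPM, which did not pass (edgeR adjusted p = 0.181). Of the 10 tested, 9 had a log2 change above 0 (51.1% of all genes), with a median of 0.50. Of these markers 1 was called higher and 0 lower, against 4.18% and 3.6% of all genes. The called gene was COL1A2, at 1.21 to 8.45 CPM with MSC and 0.528 to 0.699 without (log2 change 2.41 ± 0.51, SE, edgeR adjusted p = 0.0104). It passed in 17 of the 19 settings that tested it. Endothelial markers summed to 168.5 to 202.2 CPM with MSC and 121.4 to 157.5 without, and macrophage and leukocyte markers to 139.9 to 209.3 and 96.1 to 139.4. Most of the first sum was ESAM, at 137.4 ± 12.1 and 91.4 ± 10.9 CPM, while PECAM1, a defining endothelial marker, was called lower with MSC, at 4.43 ± 0.946 and 8.50 ± 1.21 CPM (log2 change -0.94 ± 0.19, edgeR adjusted p = 0.00745). Most of the second was CD68, at 159.1 ± 32.9 and 110.7 ± 21.8 CPM, while LYZ (log2 change -0.82 ± 0.40, edgeR adjusted p = 0.209) and CD14 (-0.45 ± 0.67, edgeR adjusted p = 0.726) did not pass. The endothelial markers therefore did not move in 1 direction, nor did those of macrophages and leukocytes, while the tested fibroblast and MSC markers were mostly above 0. The part of these cells in the keratin results was not tested.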

How the data were processed

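Per the labels' protocols, anti-GFP beads captured the tagged polysomes of whole tumours and the TruSeq RNA kit v2 was used for polyA libraries. The deposited files hold raw counts per gene symbol, with 5 lines for reads not assigned to a gene (10.2 to 12.1% of counts), left out here. Besides reads outside genes, these lines held ambiguous reads (2.38 to 2.75%) and reads not aligned uniquely (2.62 to 3.00%). Build hg19 and the tools TopHat 1.4.0, HTSeq and CASAVA 1.8.1 come from the submitters' processing notes. For the annotation, the strand setting and any removal of mouse reads nothing is stated in the sources used here, so reads of conserved mouse genes may add to counts. Groups come from the labels.

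Genes kept by filterByExpr were tested with edgeR 4.0.16 in R 4.3.3 (TMM, glmQLFit with robust=TRUE). SE was the log2 change divided by the square root of F. CPM used TMM library sizes, and log2 CPM a prior count of 2. Alternatives used limma 3.58.1 and DESeq2 1.42.0. Lengths, GC content and coding sequences were computed from GENCODE 29 (GRCh38), which also gave which genes overlap, matched by symbol or RefSeq synonym for 96.0% of tested genes. No 2 libraries of a group agreed within sampling noise (smallest chi-square per degree of freedom 24.0).

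On simulated data with 13273 genes the test found 30 of 65 genes at a 1.5-fold difference, 52 of 64 at 2-fold, and at 4-fold 57 of 66. It called 4 of 13078 genes simulated without a difference. Each gene was drawn on its own, with no variation shared by the genes of a library, so these rates need not hold for the tumours. The members and gene lists were chosen with earlier results of these data known, and 1 listed gene is not reported here and stands in no list count. Named were all 10 members, up to 4 called genes per list with at least 20 mean counts, other called keratins, and the 5 genes most like each of KRT8, KRT18, KRT14 and KRT81. KRT10, KRT15, KRT16, KRT34, VIM, PLEC, ITGA6, STUB1, TRADD, DNAJB6 and the genes of other cell types were chosen after their values were seen. KRT5 failed the filter, so of 4 planned pairs 3 were computed, and no ratio to KRT5.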

Additional observations from a re-analysis of the deposited data

Results flagged for a closer look

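Of 46 groups of 4 or 5 tumours examined, 4 had a value far from the others, and chance gives about 1 in 20. KRT14 in tumour 13 without MSC was 2.32 CPM, against 0.785 in the next tumour, a gap of 0.938 of the group's range. In the same tumour KRT14 was 1.22% of KRT8 per kilobase, against 0.452% in the next, a gap of 0.9005 of the range. KRT17 in tumour 1 with MSC was 18.1 CPM, against 7.21 in the next, a gap of 0.745 of the range. Adipocyte markers in tumour 9 without MSC summed to 24.6 CPM, against 20.2 in the next, a gap of 0.905 of the range.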

How the results depend on the processing

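There were 20 alternative settings. The counts of 563 genes higher and 484 lower were 856 and 790 with DESeq2, 403 and 289 with limma-voom, 389 and 412 with library size only, 337 and 496 after the GC and length correction, and 201 and 101 without tumours 15 and 12 together. With 1 tumour left out they ran from 151 to 985 higher and 94 to 863 lower, lowest without tumour 12 and highest without tumour 13. The 4 keratins called became 1 with limma-voom, 2 after the GC correction, 0 without tumours 15 and 12, and 0 to 5 with 1 tumour left out. On the log2 scale KRT81 turned to -0.062 with limma-voom, -0.028 with thinned counts, -0.18 after the GC correction and -0.063 without tumours 15 and 12, and with 1 tumour left out it ran from -0.077 (tumour 15) to 0.11 (tumour 10), turning also without tumour 9. KRT86 turned to -0.037 without tumours 15 and 12, and with 1 tumour left out it ran from -0.020 (tumour 12) to 0.68 (tumour 13). KRT7, KRT8, KRT14, KRT17, KRT18, KRT19 and KRT80 kept their direction in every setting that tested them. A filter of 5 CPM left KRT14, KRT17 and KRT86 untested. With 1 tumour left out, r of KRT8 and KRT18 was 0.853 to 0.973 r of KRT14 and KRT17 0.754 to 0.853, and r of KRT81 and KRT86 0.0168 to 0.554. The causes were not tested. No paired analysis was possible because the groups share no replicate numbers. KRT14 and KRT86 rest on few counts, and KRT5 lay near the limit of detection.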
